A study of Rattus norvegicus with 24 samples.

Results

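The genes that move cholesterol out of liver cells and that join it to fatty acids were examined in rat liver. The set held 10 genes: the transporters Abca1, Abcg1, Abcg5, Abcg8 and Abcg3, the high-density lipoprotein (HDL) receptor Scarb1, the acyltransferases Soat1, Soat2 and Lcat, and the lysosomal sterol carrier Npc1. Members were the non-control probes that carry one of these gene names, which gave 13 probes of 30367 on the array. Male Wistar rats, an outbred strain, were fed 1% cholesterol for 42 days. To this diet 8 rats had no fruit added (Ch), 8 had freeze-dried kiwifruit of the cultivar Geneva at 5% (ChGENE) and 8 had the cultivar Hayward at 5% in the same form (ChHAYW), and the liver RNA of each rat was hybridised to its own 1-colour Agilent array with 60-base probes. Since the controls also ate cholesterol, the comparisons show what kiwifruit added to a cholesterol diet, not what cholesterol did. The comparisons with Ch share the same 8 control livers, and ChGENE was also set against ChHAYW to ask whether the cultivars differ.

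Liver cells hold cholesterol free in membranes or esterified in droplets. Abca1 and Abcg1 hand free sterol to HDL particles, while Abcg5 and Abcg8 work only as a heterodimer that pumps cholesterol and plant sterols into bile. Soat1 and Soat2 esterify cholesterol inside cells, Lcat is secreted and does so on HDL, Scarb1 takes cholesteryl ester back up from HDL, and Npc1 releases sterol from lysosomes. Abca1, Abcg1, Abcg5 and Abcg8 are classic targets of the oxysterol receptor LXR.

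A level is the log2 signal of a probe minus the log2 75th percentile of its array, so 0 means a signal equal to that percentile. Levels of different probes are not compared, because probes bind with different strength. The Ch arrays were dimmer, with a 75th percentile of 188 to 653 intensity units against 388 to 775 for ChGENE and 409 to 1049 for ChHAYW. The arrays of a diet shared a slide that held no other diet, and an effect of slide and one of diet cannot be told apart. In whole liver, fewer cells of a type and less RNA per cell cannot be told apart either. Alb, Ttr and the other 8 hepatocyte markers listed gave signal above background in every liver.

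Of the 13 probes, 11 were above background on all 24 arrays. The Abcg8 probe was above background on 0 arrays and the Soat1 probe on 1 ChGENE, 1 ChHAYW and 0 Ch arrays, so no fold change is given for these genes. A probe was called changed with a Benjamini-Hochberg adjusted p under 0.05 in limma and a fold change of at least 1.3. In ChGENE against Ch 1 member probe was called, a probe of Abcg3, where 0.319% of all probes were called. In ChHAYW against Ch 0 member probes were called by limma and 0 by the t-test the methods name, and 0% of all probes passed, although 7604 probes had an unadjusted p under 0.05. In ChGENE against ChHAYW 0 member probes were called by limma and 0 by that t-test, where 0.00659% of all probes were called. With the unadjusted p and the same fold, 2, 3 and 1 member probes passed in these comparisons, where 24.6%, 22.8% and 5.93% of all probes did. Those were Abcg3 and Abcg8 for ChGENE against Ch, Abcg3, Abcg8 and Soat2 for ChHAYW against Ch, and Abcg5 between the cultivars. Among probes above background on all arrays of either diet compared, 2082 of 16766, 1949 of 16713 and 1386 of 17162 passed. The member probes had a median log2 fold change of 0.10, 0.06 and 0.02, beside medians of -0.16, -0.18 and -0.01 over all probes. Among probes above background on all 24 arrays, the 11 members had medians of 0.10, 0.19 and 0.02 and the 14045 probes in all had medians of -0.05, -0.04 and -0.01. Scaling each array to its spike-in probes moved the medians over all probes to 0.30, 0.47 and -0.19.

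**Figure D1:**
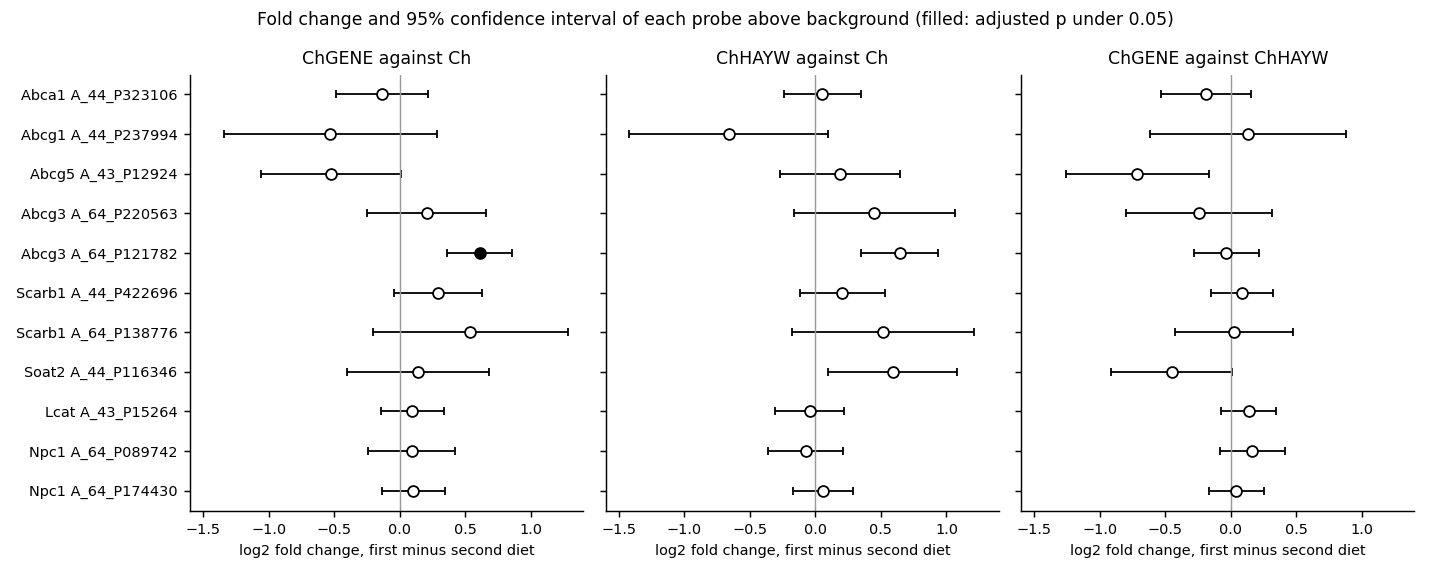
Log2 fold change of the 11 member probes above background on all 24 arrays, in 3 comparisons of 8 against 8 rats; points are limma estimates, bars are 95% confidence intervals, and the filled point is the only call. Abcg3 at A_64_P121782 stands at 0.61 for ChGENE against Ch and at 0.64 for ChHAYW against Ch, and the widest intervals with Ch are those of Abcg1.

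Abcg3, a rodent relative of the drug transporter Abcg2 with no settled substrate, gave the only call. It has 2 probes, and its neighbour on chromosome 14, Abcg3l4, has 2 as well. In the RefSeq annotation of the GRCr8 assembly the related genes follow in the order Abcg3l2, Abcg3l4, Abcg3, Abcg3l3 and Abcg3l1, with 2 protein-coding genes between Abcg3l4 and Abcg3. Probe positions below are those of the array files on the rn4 build, and the upstream probe of a gene is the one nearer its start by strand. The probes are shown because the result depends on which of them is read.
Abcg3, upstream, A_64_P121782 (chr14:5929610-5929669, plus strand): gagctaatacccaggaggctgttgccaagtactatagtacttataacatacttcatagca
Abcg3, downstream, A_64_P220563 (chr14:5943119-5943178, plus strand): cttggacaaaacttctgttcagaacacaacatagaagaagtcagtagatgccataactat
Abcg3l4, upstream, A_64_P023227 (chr14_random:357569-357628, minus strand): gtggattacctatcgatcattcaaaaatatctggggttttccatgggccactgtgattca
Abcg3l4, downstream, A_64_P166428 (chr14_random:344416-344475, minus strand): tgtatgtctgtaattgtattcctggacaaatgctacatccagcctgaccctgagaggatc
Each of these sequences can be read in at least 1 frame without a stop codon. The probes lay 13509 bases apart in Abcg3 and 13153 bases apart in Abcg3l4, so they read different parts of each gene. No pair of the 4 shared a sequence: in the best ungapped overlap of 50 bases or more, at least 29 bases differed. Transcript sequences were not used here, so whether a probe also binds the transcript of a related copy was not tested.

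At the upstream Abcg3 probe the Ch livers ranged from -2.05 to -1.34 with a median of -1.51. The ChGENE livers ranged from -1.11 to -0.80 with a median of -0.99. The ChHAYW livers ranged from -1.30 to -0.53 with a median of -0.94. Every liver of either kiwifruit diet lay above every Ch liver, of which rat 7 was the lowest. Groups did not overlap for 0.692% of all probes in ChGENE against Ch and for 0.0593% in ChHAYW against Ch. The rise in ChGENE was 0.61 on the log2 scale (SE 0.12), or 1.52-fold, with an adjusted p of 0.0448 in limma and rank 57 of 30367 by p. For ChHAYW the difference was 0.64 (SE 0.14), or 1.56-fold, with rank 24 and an adjusted p of 0.110, so it was not called. The exact two-sided permutation test of this probe alone gave 0.000155 in either comparison, the smallest p that 8 against 8 allows. Between the kiwifruit diets the difference was -0.04, with a 95% interval from -0.28 to 0.21, and the groups overlapped, as they did for all but 0.0922% of all probes.

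The call in ChGENE stood close to the threshold. It was lost in 16 of 29 alternative settings, 12 of which left out 1 rat, while the difference stayed positive in all of them, between 0.37 and 1.07. Arrays with a higher 75th percentile also had higher levels at this probe (r = 0.68 over 24 arrays, and 0.40 after removing diet means). With that percentile as a covariate the difference was 0.54 (adjusted p 0.154, limma) for ChGENE and 0.47 (adjusted p 0.738, limma) for ChHAYW.

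The downstream Abcg3 probe gave no call. Its levels ran from -1.58 to -0.10 in Ch with a median of -0.59. In ChGENE they ran from -0.92 to -0.01 with a median of -0.52, and in ChHAYW from -1.17 to 0.54 with a median of -0.20. All groups overlapped, and ChHAYW was the most scattered. The differences from Ch were 0.21 (SE 0.22) for ChGENE and 0.45 (SE 0.29) for ChHAYW, with adjusted p of 0.576 and 0.332 in limma, and both turned negative with the 75th percentile as a covariate.

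Abcg3l4 showed the same split between its probes. At the upstream probe the Ch livers ranged from -2.88 to -2.08 with a median of -2.59, the ChGENE livers from -2.13 to -1.61 with a median of -1.99, and the ChHAYW livers from -2.39 to -1.39 with a median of -1.91. The kiwifruit diets overlapped with Ch only at the edges. The rise in ChGENE was 0.69 (SE 0.14, adjusted p 0.0481, limma), and its call was lost in 18 of 29 alternative settings. The difference stayed positive in all of them, from 0.26 with normexp background correction to 1.15 with spike-in scaling. For ChHAYW the difference was 0.64 (SE 0.16, adjusted p 0.110, limma) and was not called. With normexp it was 0.21 and with spike-in scaling 1.29. At the downstream Abcg3l4 probe, whose accessions in the array files also name other transcripts, the differences were 0.24 and 0.30, with adjusted p of 0.333 and 0.299 in limma.

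Over all rats, probes at the same end of the neighbouring genes had a higher correlation than the probes of a single gene, but not within every diet. With diet means removed, the upstream probes of Abcg3 and Abcg3l4 correlated at r = 0.81 and the downstream probes at r = 0.86 over 24 rats. The upstream and downstream probes correlated at r = 0.46 within Abcg3 and at r = 0.50 within Abcg3l4. Upstream Abcg3 against downstream Abcg3l4 gave 0.66, and the remaining combination gave 0.26. Within a diet, r of the upstream pair was 0.95 in ChHAYW, 0.77 in ChGENE and 0.64 in Ch, and that of the downstream pair was 0.94, 0.67 and 0.88. In ChGENE the probes of Abcg3l4 correlated as highly as the downstream pair did (0.67), and in Ch upstream Abcg3 with downstream Abcg3l4 (0.76) exceeded the upstream pair. These pairs were chosen after their values were seen, all 4 probes share the brightness of their arrays, and the values are given as a description.

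**Figure D2:**
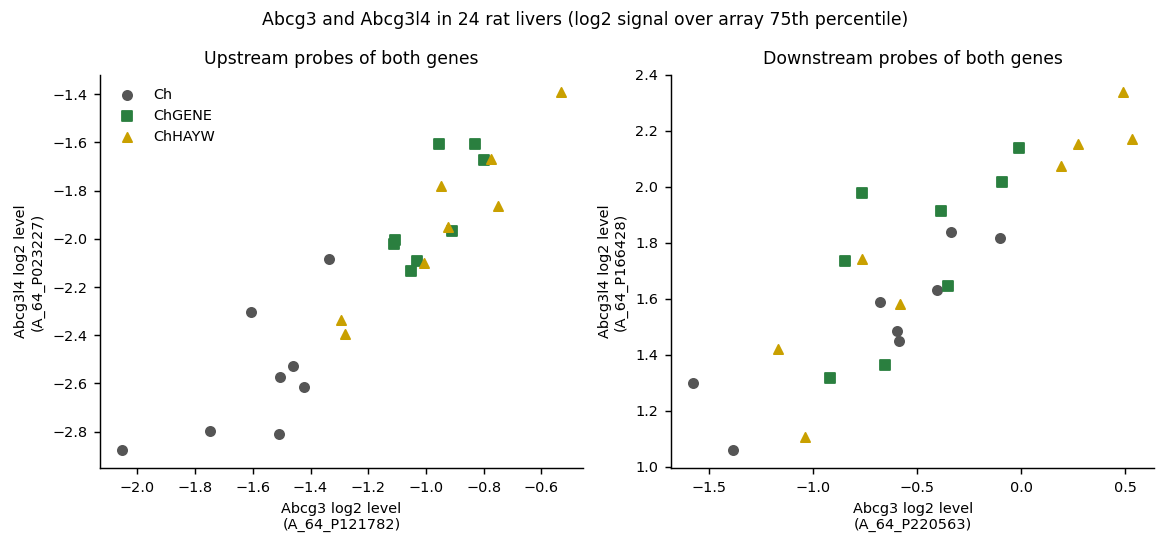
Log2 level of Abcg3 (x axis) and Abcg3l4 (y axis) in 24 livers, at the upstream probes (left) and the downstream probes (right); each symbol is a rat and the colour is the diet. On the left the Ch rats lie apart at the lower left, all at or below -1.34 for Abcg3, while on the right the diets mix along a common line.

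The other members of the subfamily on the array were not called in any comparison. Abcg3l2 gave 0.21 (SE 0.27) for ChGENE against Ch and -0.12 (SE 0.21) for ChHAYW against Ch. Abcg3l1 gave 0.04 (SE 0.26) and 0.20 (SE 0.18), with 7 of 8 Ch arrays above background. Abcg2, which exports drugs and urate, gave -0.01 (SE 0.33) and -0.34 (SE 0.27). Abcg3l3 was above background on 1 ChHAYW array alone, and Abcg4 on 0 arrays.

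Abca1, which loads cholesterol onto lipid-poor apolipoprotein A-I, differed little between the diets. Its levels ran from -0.24 to 0.61 in Ch (median 0.12), from -0.37 to 0.59 in ChGENE (median -0.06) and from -0.07 to 0.57 in ChHAYW (median 0.19). The ranges lay on top of each other, and the ChGENE livers split into 2 high ones, rats 4 and 5, and 6 lower ones. The difference from Ch was -0.14 for ChGENE, with a 95% interval from -0.49 to 0.21, and 0.05 for ChHAYW, from -0.24 to 0.35. The sign is not settled: spike-in scaling gave 0.32 for ChGENE, and the 75th percentile as a covariate gave -0.20 for ChHAYW. ChGENE against ChHAYW was -0.19 (SE 0.16, adjusted p 0.825, limma).

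Abcg1, which adds cholesterol to mature HDL and is prominent in macrophages, was the member that varied most among rats of a diet. Its levels ran from 0.90 to 3.26 in Ch (median 2.15), from 0.58 to 2.76 in ChGENE (median 1.39) and from 0.61 to 2.47 in ChHAYW (median 1.71). Low and high livers occurred on every diet, and the SD within a diet was 0.70 to 0.84. The pooled SD of 0.79 exceeded that of 96.8% of the 14045 probes above background on all arrays. The difference from Ch was -0.53 (SE 0.38, adjusted p 0.401, limma) for ChGENE and -0.66 (SE 0.36, adjusted p 0.255, limma) for ChHAYW, and neither passed. The ChHAYW difference was called only when limma weighted the arrays by quality, at -1.25 with an adjusted p of 0.0206. With spike-in scaling the differences shrank to -0.07 for ChGENE and -0.01 for ChHAYW. Between the cultivars it was 0.13, with a 95% interval from -0.62 to 0.88, and -0.06 with spike-in scaling.

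Abcg5 and Abcg8 encode the obligate pair of the biliary sterol pump. On GRCr8 they lie head to head on chromosome 6 with 205 bases between their annotated starts, 52.2% of them G or C. This stretch is shown because it is the start region of both genes, of which the array read only Abcg5.
Between Abcg8 and Abcg5, read toward Abcg5 (chr6:15717731-15717935, plus strand, GRCr8, RefSeq): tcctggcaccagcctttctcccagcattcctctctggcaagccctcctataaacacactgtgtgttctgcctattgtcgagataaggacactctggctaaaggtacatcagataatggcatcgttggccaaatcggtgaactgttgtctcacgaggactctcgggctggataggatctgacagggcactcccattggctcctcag
Promoter windows of 300 bases, from 250 before to 50 after the start, were given for 7 of the 10 members in the RefSeq table (all but Abcg1, Scarb1 and Soat2). Those of Abcg5 and Abcg8 share 295 of their 300 bases and are in effect 1 window read from either strand. The hexamer AGGTCA, the element that many nuclear receptors bind, was in 0 of these 7 windows on either strand and in 16.2% of 33469 windows of all genes. An exact DR4 repeat of that hexamer, the strict form of the element LXR binds, was in 0 of 7 and in 0.00598% of all. Looser forms of the element were not searched, so this count cannot show that a window lacks one. The octamer CACCCCAC was in 0 of 7 and in 2.70% of all, and the hexamer CACGTG was in the window of Abca1 and in 6.42% of all. The GC-rich hexamer GGGCGG was in those of Abca1, Soat1 and Npc1, and in 33.1% of all. These counts describe the letters of these windows alone.

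Abcg5 was lowest in ChGENE. The Ch livers ranged from 0.79 to 1.93 with a median of 1.54, and the ChGENE livers from -0.08 to 1.46 with a median of 1.08. The ChHAYW livers ranged from 0.95 to 2.21 with a median of 1.57. Every ChGENE liver was below the median of Ch and below the median of ChHAYW, but the ranges overlapped, and ChGENE rats 4 and 5 were far below the rest. ChGENE against ChHAYW was -0.72 (SE 0.26), with an exact permutation p of 0.0179 for this probe and an adjusted p of 0.464 in limma, so it was not called. ChGENE against Ch was -0.53 (SE 0.25, adjusted p 0.189, limma), with an exact permutation p of 0.0656, and -0.07 with spike-in scaling. ChHAYW against Ch was 0.19 (SE 0.22), with a 95% interval from -0.27 to 0.64, and it was -0.12 with the 75th percentile as a covariate and 0.84 with spike-in scaling. Between the cultivars the difference stayed negative in all 29 alternative settings, from -0.91 to -0.58, and was called in 0 of them. ChGENE rats 4 and 5 also had close levels of Abca1 (0.59 and 0.53), Abcg1 (2.74 and 2.76) and Soat2 (-1.08 and -1.12). They were less close at downstream Abcg3 (-0.65 and -0.92). ChHAYW rats 6 and 7 were alike at Abcg5 (2.20 and 2.21) and Abcg1 (1.84 and 1.81), less so at downstream Abcg3 (0.19 and 0.54). No arrays held identical values. Every test here counts each rat as independent, and whether these livers were was not tested.

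The Abcg8 probe had no signal that stood out from the background. Its intensities were 4.41 to 6.64 units in Ch, 3.87 to 6.20 in ChGENE and 4.44 to 6.41 in ChHAYW, with medians of 5.08, 4.81 and 5.34. These ranges lay on top of each other. After scaling, its level followed the brightness of the array, with r = -0.92 against the log2 75th percentile over 24 arrays and -0.89 after removing diet means. Its scaled level was highest on the dim Ch arrays, from -7.21 to -5.33, against -7.43 to -6.65 in ChGENE and -7.35 to -6.31 in ChHAYW. For this reason the unadjusted p of 0.00493 and 0.0110 that limma gave it in the comparisons with Ch are not read as a difference in Abcg8 RNA.

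**Figure D3:**
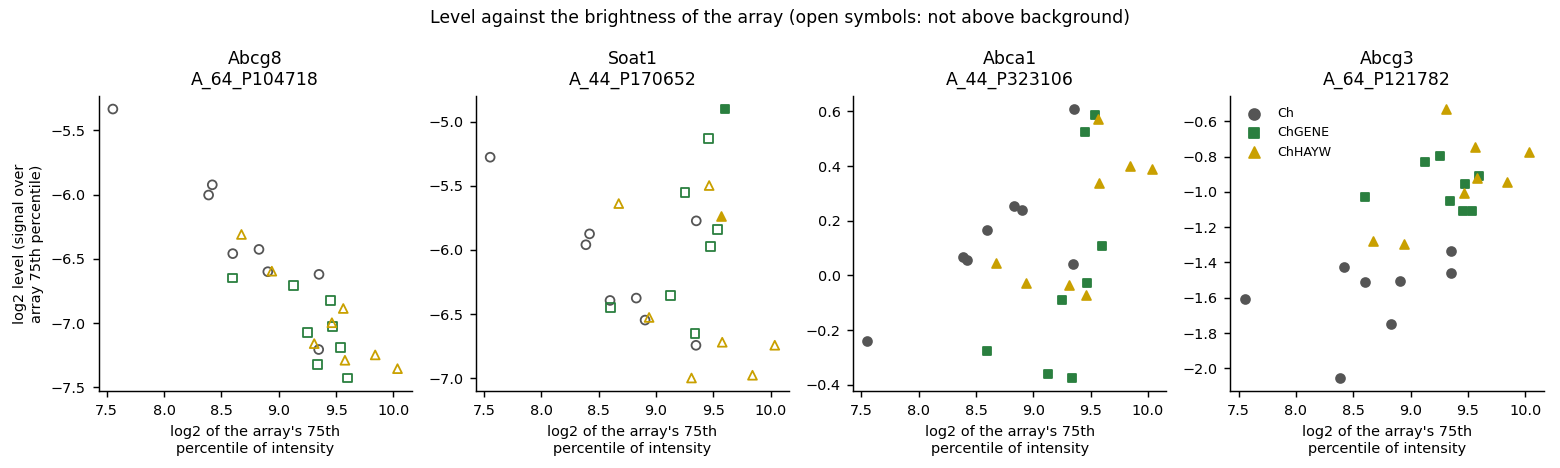
Log2 level of the Abcg8, Soat1, Abca1 and upstream Abcg3 probes against the log2 75th percentile of intensity of each of 24 arrays; colours and symbols are the diets, and open symbols were not above background. Abcg8 falls along a line with r = -0.92, and the upstream Abcg3 probe rises with r = 0.68.

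Scarb1, the receptor that takes cholesteryl ester from HDL, has 2 probes. At the brighter probe (A_44_P422696) the Ch livers ranged from 2.05 to 3.16 (median 2.75), the ChGENE livers from 2.80 to 3.37 (median 2.92) and the ChHAYW livers from 2.55 to 3.09 (median 2.93). All 8 ChGENE livers and 7 of 8 ChHAYW livers lay above the median of Ch, but the ranges overlapped because Ch was wide, with rats 7 and 8 lowest. The differences from Ch were 0.29 (SE 0.16, adjusted p 0.257, limma) and 0.21 (SE 0.15, adjusted p 0.394, limma), and with spike-in scaling 0.75 and 0.86. At the other probe (A_64_P138776) Ch ran from -0.42 to 2.08, ChGENE from 0.88 to 2.20 and ChHAYW from 0.95 to 1.83. The differences there were 0.54 (SE 0.35) and 0.51 (SE 0.33), with adjusted p of 0.351 and 0.329 in limma, and both turned negative with the 75th percentile as a covariate (-0.19 and -0.09). Between the cultivars the probes gave 0.08 and 0.02.

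Soat1 and Soat2 are the intracellular esterifying enzymes, Soat2 being the form typical of hepatocytes and Soat1 that of macrophages and many other cells. Their probes read the same stretch of these related genes, and capitals mark the bases they share.
Soat1, A_44_P170652 (chr13:71423884-71424171, minus strand, rn4): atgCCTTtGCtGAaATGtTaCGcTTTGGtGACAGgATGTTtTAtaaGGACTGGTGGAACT
Soat2, A_44_P116346 (chr7:140901533-140902003, plus strand, rn4): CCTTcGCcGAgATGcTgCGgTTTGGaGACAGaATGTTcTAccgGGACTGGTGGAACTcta
Over the 57 bases where they overlap, 45 were the same and 12 differed. Both probes span more genome than their 60 bases, and so cross an intron. Intensities at the Soat1 probe were 4.61 to 11.9 units in Ch, 4.43 to 25.9 in ChGENE and 4.96 to 15.6 in ChHAYW. Only ChGENE rat 1 and ChHAYW rat 8 were above background there, and no fold is given.

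Soat2 was above background in all livers and was highest in ChHAYW. The Ch livers ranged from -1.58 to 0.03 with a median of -0.58, and the ChGENE livers from -1.12 to 0.37 with a median of -0.62. The ChHAYW livers ranged from -0.53 to 0.50 with a median of -0.10. All 8 ChHAYW livers lay above the median of Ch, but only 2 lay above its highest rat. ChHAYW against Ch was 0.59 (SE 0.23), with an exact permutation p of 0.0278 for this probe and an adjusted p of 0.137 in limma, so it was not called. It was called in 1 of 29 alternative settings, the fit with weighted arrays (adjusted p 0.0430, limma), and lay between 0.14 and 1.24 over all of them. ChGENE against Ch was 0.14 (SE 0.26), 0.60 with spike-in scaling and -0.22 with the 75th percentile as a covariate. ChGENE against ChHAYW was -0.45, with a 95% interval from -0.92 to 0.01 and an adjusted p of 0.613 in limma.

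Lcat, which the liver secretes into plasma, varied little among rats. Its levels ran from 5.78 to 6.43 in Ch (median 6.02), from 6.02 to 6.30 in ChGENE (median 6.14) and from 5.80 to 6.39 in ChHAYW (median 5.99). The ranges of both kiwifruit diets lay within that of Ch. The differences from Ch were 0.09, with a 95% interval from -0.15 to 0.33, and -0.04, from -0.31 to 0.22. The first of these depended on the scaling: 0.35 with quantile normalization, 0.32 with cyclic loess, 0.55 with spike-in scaling and 0.06 with median scaling. It was called in 0 of 29 alternative settings. The second changed sign in 6 of 29 alternative settings, and was 0.61 with spike-in scaling. Between the cultivars it was 0.14, with a 95% interval from -0.07 to 0.35, and -0.05 with spike-in scaling. Its SD within a diet, 0.18, was larger than that of only 8.12% of the probes above background on all arrays.

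Npc1, which exports cholesterol from lysosomes, has 2 probes, and neither was called. At the brighter (A_64_P089742) the levels ran from 2.41 to 3.47 in Ch (median 3.13), from 2.80 to 3.47 in ChGENE (median 3.19) and from 2.85 to 3.20 in ChHAYW (median 2.99). The ranges nested in each other, with Ch rat 5 alone at the bottom. The differences from Ch were 0.09 (SE 0.16) and -0.07 (SE 0.13) there, and 0.10 (SE 0.11) and 0.06 (SE 0.11) at the other probe (A_64_P174430). Without Ch rat 5 the first of these was -0.01, and spike-in scaling turned the second to 0.58. The 95% interval at the second probe ran from -0.14 to 0.34 for ChGENE and from -0.17 to 0.29 for ChHAYW.

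**Figure D4:**
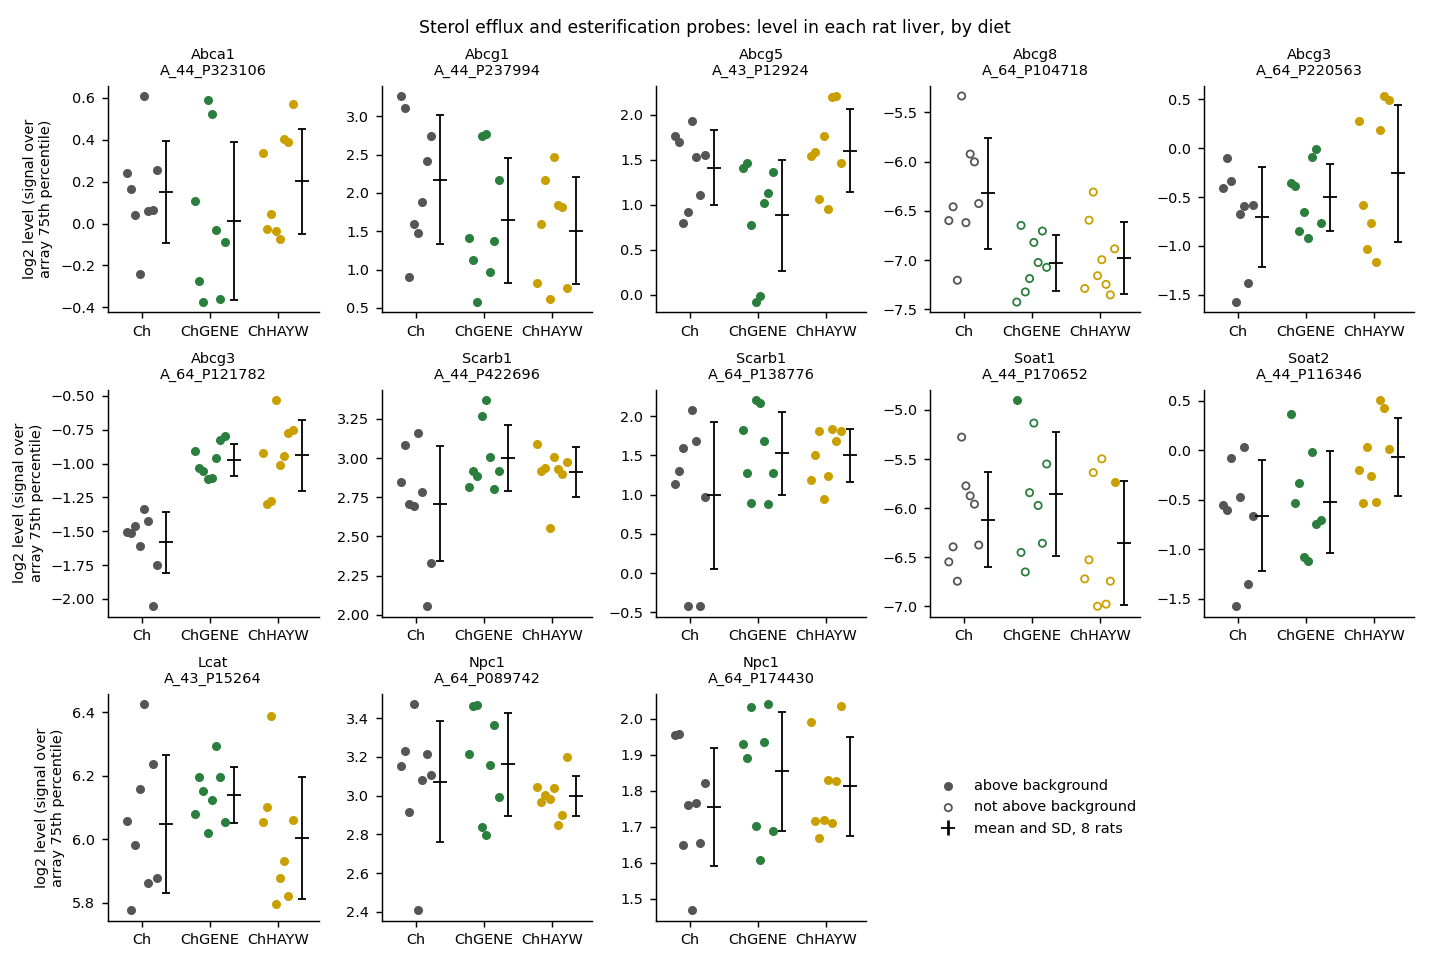
Log2 level of each of the 13 probes in each rat liver, by diet; bars are the mean and SD of 8 rats, and open circles were not above background. The upstream Abcg3 probe (A_64_P121782) is the only panel in which both kiwifruit diets lie wholly above Ch, and all 24 Abcg8 values are open.

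Whether members varied together among rats of a diet was tested in 6 pairs, on deviations from the diet mean over 24 rats. Each gene was read at its brightest probe. Soat2 and Abcg5, which compete for the same free cholesterol as ester or as bile sterol, varied together (r = 0.54, Spearman's rho = 0.46). The permutation p was 0.00937 for r and 0.0287 for rho, adjusted over the pairs to 0.0281 and 0.0862, so only r passed. The sign was positive on every diet, with r of 0.68 in ChHAYW, 0.65 in ChGENE and 0.32 in Ch. Without the 2 rats farthest from the median of Soat2 (Ch 4 and ChGENE 1) r was 0.47. ChGENE rats 4 and 5 had the lowest levels of their diet for Soat2 (-1.08 and -1.12) and for Abcg5 (-0.08 and -0.02). ChHAYW rats 6 and 7 had the highest levels of theirs for Soat2 (0.50 and 0.42) and for Abcg5 (2.20 and 2.21). The relation without these rats was not computed, and the permutation counts each rat as independent. Other genes reached r of 0.93 with Soat2 and 0.86 with Abcg5, and the r typical of pairs of genes was not computed. After removing the 75th percentile r was 0.53.

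Abca1 and the brighter Npc1 probe (A_64_P089742) varied in opposite directions (r = -0.69, rho = -0.54). The permutation p was 0.00066 for r and 0.0126 for rho, adjusted to 0.00396 and 0.0758, so again only r passed. The relation held in Ch (-0.84) and ChGENE (-0.90) but not in ChHAYW (0.17), and was -0.58 without ChGENE rats 4 and 5. Within diets Abca1 followed the 75th percentile of the array with r = 0.61 and this Npc1 probe with r = -0.61. The other Npc1 probe (A_64_P174430), which was not paired with Abca1, gave -0.06. After removing that percentile the pair gave -0.50. The part of array brightness in the relation was not tested further. The other 4 pairs did not pass: Abcg5 with Abcg8 gave -0.22 (adjusted permutation p 0.353), Abca1 with Abcg1 0.33 (0.273), Soat1 with Soat2 -0.23 (0.353) and Scarb1 with Lcat 0.05 (0.861). Abcg8 and Soat1 were not above background, so their pairs say little about RNA.

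**Figure D5:**
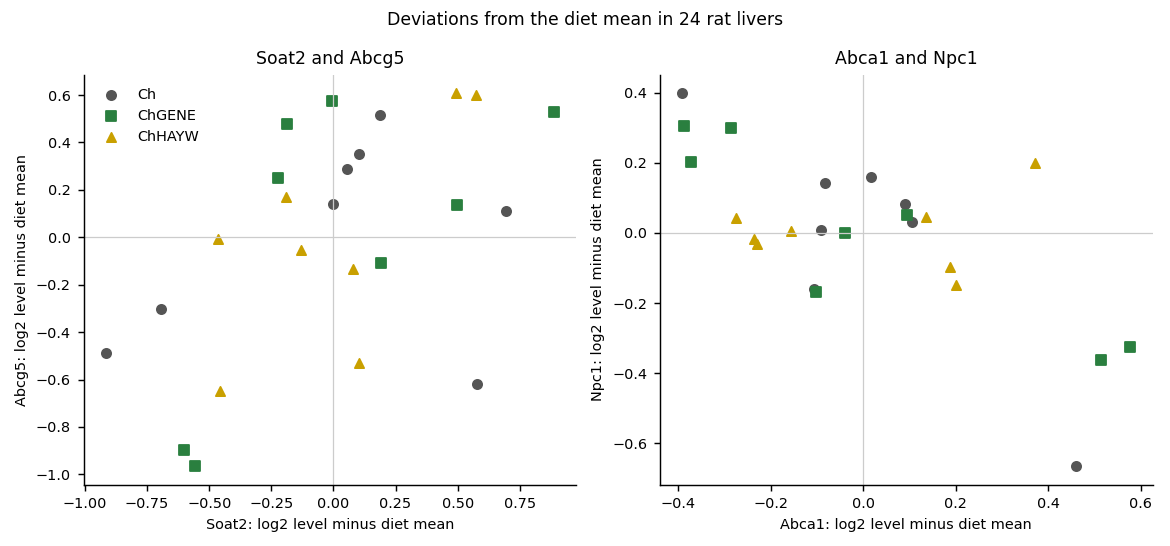
Deviation of log2 level from the diet mean in 24 livers for Soat2 against Abcg5 (left) and Abca1 against Npc1 at its brighter probe (right). Each symbol is a rat, and the lines mark 0. The left panel rises with r = 0.54 on all diets together, and the right panel falls with r = -0.69 except among the ChHAYW rats, where r was 0.17.

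The genes with a symbol that followed each member most closely across the 24 rats, again with diet means removed and among the 14045 probes above background on all arrays, were these. For Soat2 they were the glutathione transferase Gstm4 and the NAD synthetase Nadsyn1 (r = 0.93 for both). For Abcg5 they were the activin subunit Inhbb and the F-box gene Fbxo3 (0.86 for both). Abca1 was followed by Gltpd1 and Cpb2 (0.87 for both), and Abcg1 by the mitochondrial superoxide dismutase Sod2 and Rasa3 (0.83 for both). The downstream Abcg3 probe, the brighter one, was followed by Etfdh (0.88) and Gmcl1 (0.87), Scarb1 by Plcl2 (0.83) and Fam69a (0.78), and Npc1 by Gpbp1l1 (0.85) and Arl6ip1 (0.83). Lcat was followed by Babam1 (0.73) and by Apoa4 (0.72), an apolipoprotein of HDL and chylomicrons. These are the highest of many correlations over arrays that share their brightness, and carry no test.

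The wider pathway was read in 5 lists, at the brightest probe of each gene, and 0 of 107 genes were called by limma in any of the 3 comparisons. An unadjusted p under 0.05 was found for 29, 28 and 16 of them (27.1%, 26.2% and 15.0%), where 26.9%, 25% and 8.31% of all probes had one. Among probes above background on all arrays of either diet compared, 3060 of 16766, 2958 of 16713 and 2337 of 17162 had one. Of 14 genes around LXR, 0 were called, with medians of 0.03, 0.01 and 0.03. Srebf1, the LXR target that drives fatty acid synthesis, stood at -0.82 (adjusted p 0.0646, limma) in ChGENE and -0.86 (adjusted p 0.110, limma) in ChHAYW. Mylip, which marks lipoprotein receptors for degradation, stood at 0.51 and 0.31, Arl4c at 0.37 in ChGENE, and Rxra, the partner of LXR, at -0.78 in ChHAYW and 0.39 between the cultivars. Nr1h3, which encodes LXR alpha, gave 0.27 and Lpcat3 -0.25 between the cultivars.

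Of 15 genes for HDL acceptors and remodelling, 0 were called, with medians of -0.26, -0.24 and 0.01. Pdzk1, the scaffold that holds Scarb1 at the hepatocyte surface, had the lowest p in 2 comparisons: 0.67 in ChGENE against Ch (SE 0.18, adjusted p 0.0608, limma) and 0.71 in ChGENE against ChHAYW (SE 0.15, adjusted p 0.130, limma). Apoc1 gave -0.53 in ChGENE and -0.54 in ChHAYW, and Apoe -0.57 in ChHAYW. Between the cultivars Apoa4 gave 0.49 and Bmp1 0.38. Cubn also ranked among the first but was above background on 0 kiwifruit arrays and 1 Ch array.

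Of the 26 genes measured for sterol transport within the cell, 0 were called, with medians of -0.08, -0.12 and 0.04. Anxa2 gave 0.78 (SE 0.26, adjusted p 0.0697, limma) and the sterol carrier Stard4 -0.64 (SE 0.25, adjusted p 0.105, limma) in ChGENE. In ChHAYW Stard5 gave 0.48, with 7 of 8 Ch arrays above background, and Scp2 -0.35. Between the cultivars Scp2 gave 0.34, Osbpl9 -0.30 and Vps4a 0.49. Osbpl6 and Npc1l1 were not above background.

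Of 8 genes listed under cholesteryl ester hydrolysis, 0 were called, with medians of -0.36, -0.16 and -0.27. The carboxylesterases Ces1c and Ces1d gave -0.96 (SE 0.33) and -1.59 (SE 0.67) in ChGENE against Ch, and -0.62 and -1.48 between the cultivars. Ces1c gave -0.34 in ChHAYW. Lipa, the lysosomal acid lipase, gave -0.32 in ChGENE and -0.21 in ChHAYW, and Aadac 0.48 in ChHAYW and -0.61 between the cultivars.

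Of 44 other ABC transporters, 0 were called at the brightest probe, with medians of -0.02, -0.10 and -0.00148; the called Abcg3l4 probe is its dimmer one and is not in this count. Abca8 gave -0.51 and Abcd3 -0.48 in ChGENE, and Abcb6 -0.65 in ChGENE and -0.49 in ChHAYW, where Abcb10 gave -0.55. Between the cultivars Abcb1a, a drug efflux pump, gave -0.72 (SE 0.13, adjusted p 0.0697, limma), Abcc4 -0.46 and Abca4 1.06. Abca12 was not above background.

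Markers of cell types in liver were measured beside these genes, and 0 of 73 in 10 lists were called by limma in any comparison. An unadjusted p under 0.05 was found for 18, 18 and 6 of them (24.7%, 24.7% and 8.22%), where 26.9%, 25% and 8.31% of all probes had one. Among probes above background on all arrays of either diet compared, 3060 of 16766, 2958 of 16713 and 2337 of 17162 had one. Macrophages also use Abca1, Abcg1 and Npc1. The 13 macrophage and Kupffer cell markers measured had median differences of 0.58 in ChGENE and 0.27 in ChHAYW, and their summed level ran from 5.86 to 7.23 in Ch, 5.81 to 8.04 in ChGENE and 5.94 to 7.57 in ChHAYW. Other lists also had positive medians in ChGENE: 0.48 for sinusoidal endothelium, 0.48 for T, B and NK cells, 0.51 for neutrophils and 0.23 for stellate cells. With the unadjusted p and the fold, 0 macrophage markers passed in ChGENE, where 24.6% of all probes did. Among probes above background on all arrays of either diet compared, 2082 of 16766 did. For endothelium 2 of 7 passed (both higher) and for T, B and NK cells 1 of 9. For neutrophils 0 of 5 passed and for stellate cells 5 of 8 (3 higher, 2 lower). In ChHAYW the medians were 0.25, 0.06, -0.70 and -0.03 in the same order. The 10 hepatocyte markers had medians of -0.36 and -0.37, with summed levels of 10.97 to 11.89 in Ch, 10.85 to 11.49 in ChGENE and 10.61 to 11.52 in ChHAYW. With the unadjusted p and the fold, 4 of them passed in ChGENE and 5 in ChHAYW, all lower. Of all probes 24.6% and 22.8% passed in these comparisons. Among probes above background on all arrays of either diet compared, as these markers were, 2082 of 16766 and 1949 of 16713 passed. Of the pancreas markers Prss1 and Pnlip, of the lymphocyte markers Ms4a1, and of the intestine markers Vil1 were above background on 0 of 24 arrays. On all 24 arrays, 4 of 5 intestine markers measured, 3 of 9 lymphocyte markers and 0 of 5 pancreas markers were above background. The part of cell makeup in the values above was not tested.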

How the data were processed

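Liver RNA from 24 rats was measured on 1-colour Agilent arrays, each diet on a slide of its own. The deposited values are intensity, the processed signal that the authors took from Agilent Feature Extraction 10.10.1.1 after background subtraction, with probe positions on rn4. How the study scaled arrays to each other was not given in the sources used here. Here log2 intensity was scaled to the 75th percentile of each array, outlier spots were dropped and spots of a probe averaged. Each pair of diets was fitted with limma 3.58.1 (R 4.3.3) on its 16 arrays, with Benjamini-Hochberg adjustment over 30367 probes, and single probes were also tested by exact two-sided permutation (scipy 1.17.1). The t-test that the methods name and other scalings, filters and fits, and each rat left out in turn, were alternatives. The number of arrays limits the precision.

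All probes of the 10 genes are reported. A gene is counted at its brightest probe in the pathway lists, of which the called genes or those with the smallest p, up to 3 per comparison, are named. The 2 genes most like each member are named by the highest r across rats. Members and lists were chosen with earlier results of these data known. The fit was also run on simulated data with independent noise for each probe. Those data held no shared array brightness and no effect of slide, so that run cannot show how calls behave under these.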

Additional observations from a re-analysis of the deposited data

Results flagged for a closer look

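At the brighter Scarb1 probe (A_44_P422696) ChHAYW rat 4 stood apart at a level of 2.55, while the other 7 ChHAYW rats lay between 2.90 and 3.09. The gap to its neighbour was 0.640 of the range of the group, above the critical value of the test of Dixon for 8 samples. It was the only such sample in 39 groups of rats tested, where chance alone marks about 1 group in 20.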

How the results depend on the processing

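Over the alternatives that kept all rats, 929 fold changes kept direction and call, 52 gained a call, 10 lost it and 36 changed sign. When 1 rat was left out the counts were 1200, 23, 24 and 17. The cause of these changes was not tested.

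The number of called probes in ChGENE against Ch, 97 (21 higher and 76 lower), was 64 with quantile normalization, 4623 with median scaling, 10197 with normexp, 157 for probes above background, 245 with the t-test of the methods, 3676 with array weights, 2863 with all 24 arrays in a single fit and 0 with the 75th percentile as a covariate. With spike-in scaling 66 probes were called higher and 3 lower. Leaving out a rat gave 0 to 4957, with 4957 without Ch rat 3, 3137 without ChGENE rat 2 and 0 without ChGENE rat 3, ChGENE rat 4 or Ch rat 2. In ChHAYW against Ch, 0 became 3240 with median scaling, 2 with spike-in scaling, 1 with cyclic loess, 11480 with normexp and 5703 with array weights, and 0 to 4588 without a rat (4588 without ChHAYW rat 3, 3675 without Ch rat 3). Between the cultivars, 2 became 18 with quantile normalization, 10 with median scaling, 0 with spike-in scaling, 17 with cyclic loess, 11 with normexp, 21 for probes above background, 1 with the t-test, 19 with trend and robust fits, 62 with array weights and 8 with all arrays in a single fit, and 0 to 33 without a rat.

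Of the 13 member probes, the 1 call in ChGENE became 2 with median scaling, array weights or a single fit, and 0 with spike-in scaling or the covariate, and lay between 0 and 2 without a rat. The second call was always Abcg8, and with normexp Abcg8 took the place of Abcg3. The Abcg3 call was lost without any of ChGENE rats 1, 3, 4, 5, 6, 7 and 8 or Ch rats 1, 2, 6, 7 and 8, while its adjusted p in limma ranged from 0.00874 to 0.154 over all alternatives. With normexp its difference, 0.37, fell short of the fold required. In ChHAYW the 0 calls became 2 with median scaling, 3 with normexp and 4 with array weights (Abcg1, Abcg3, Abcg8 and Soat2), and 0 to 2 without a rat (2 without Ch rat 3 or ChHAYW rat 3). Between the cultivars 0 stayed 0.

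The replicate numbers did not pair the rats: deviations of rats with the same number correlated between -0.35 and 0.23. With a replicate block the called probes numbered 4 in ChGENE against Ch and 0 between the cultivars, 0 of them members, and the Abcg3 difference was 0.61 with an adjusted p of 0.0726 (limma).

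Signs changed as follows. With the 75th percentile as a covariate, ChGENE against Ch became -0.055 for downstream Abcg3, -0.19 for Scarb1 at A_64_P138776 and -0.22 for Soat2. ChHAYW against Ch became -0.20 for Abca1, -0.12 for Abcg5, -0.16 for downstream Abcg3, -0.086 for Scarb1 at A_64_P138776, 0.029 for Lcat, 0.14 for Npc1 at A_64_P089742, -0.040 for downstream Abcg3l4 and -0.20 for Aadac. With spike-in scaling ChGENE against Ch became 0.32 for Abca1 and 0.14 for Lipa. ChHAYW against Ch became 0.61 for Lcat, 0.58 for Npc1 at A_64_P089742, 0.080 for Apoe, 0.11 for Apoc1, 0.31 for Ces1c, 0.44 for Lipa, 0.30 for Scp2, 0.16 for Abcb6 and 0.097 for Abcb10. Between the cultivars it gave -0.059 for Abcg1, -0.10 and -0.17 for Scarb1, -0.053 for Lcat, -0.025 and -0.15 for Npc1 and -0.14 for upstream Abcg3l4. In ChHAYW against Ch, Lcat was 0.14 with quantile normalization, 0.14 with cyclic loess and 0.048 with normexp, Npc1 at A_64_P089742 was 0.022 and Stard5 -0.00186 with normexp. Scarb1 at A_64_P138776 between the cultivars was -0.013 with median scaling and -0.030 with array weights.

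Without a rat, Npc1 at A_64_P089742 in ChGENE against Ch ranged from -0.0057 to 0.15. In ChHAYW against Ch, Abca1 ranged from -0.0038 to 0.12 and Lcat from -0.098 to 0.011. Between the cultivars Abcg1 ranged from -0.029 to 0.28, upstream Abcg3 from -0.086 to 0.023, Scarb1 at A_64_P138776 from -0.075 to 0.11, upstream Abcg3l4 from -0.017 to 0.13 and downstream Abcg3l4 from -0.16 to 0.014.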
